A study of Mus musculus with 7 samples.

Results

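The core circadian clock genes examined here were 10 genes, *Nr1d1*, *Nr1d2*, *Dbp*, *Tef*, *Hlf*, *Per1*, *Per2*, *Per3*, *Ciart* and *Arntl*, of the 55487 genes in the count table. They were chosen by their symbols after the difference between *Neat1*-KO; hSOD1G93A and *Neat1*-WT; hSOD1G93A libraries had been seen in these same data, so their differences between the genotypes are given as a description without a test. All 10 were found by their GENCODE M21 symbols and all 10 were among the 18449 genes that passed the filter on low counts. The study sequenced poly(A) RNA of cervical spinal cord from 4 *Neat1*-KO; hSOD1G93A mice and 3 *Neat1*-WT; hSOD1G93A mice, with 1 library per label. All of them were 8 weeks old and all carried the human *SOD1* transgene with a mutation of familial ALS, kept hemizygous on a mixed B6 and SJL background, so no group without the transgene was compared. *Neat1*-KO stands for loss of the long non-coding RNA that scaffolds nuclear paraspeckles. The libraries are named after the numbers in their labels, *Neat1*-KO replicates 1 to 4 and *Neat1*-WT replicates 2 to 4. The mice were housed in a regular light/dark cycle, and the time of day at which each cord was collected is not given in the sources used here.

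The clock is a feedback loop of transcription that runs in nearly every cell. The proteins BMAL1, encoded by *Arntl*, and CLOCK bind E-boxes and activate *Per*, *Cry*, *Nr1d1*, *Nr1d2*, *Dbp* and *Ciart*, whose products close the loop: PER, CRY and the *Ciart* product CHRONO repress BMAL1 and CLOCK, while the nuclear receptors REV-ERBα (*Nr1d1*) and REV-ERBβ (*Nr1d2*) repress *Arntl* through ROR elements. DBP, TEF and HLF, the PAR bZIP factors, activate genes through D-boxes. In mouse tissues *Arntl* is known to peak late in the night or near dawn, and the other 9 genes between the day and dusk. Samples collected at different times of day can therefore differ in *Arntl* and in the other genes in opposite directions, depending on the times.

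The promoters show where these elements lie in the genes themselves. RefSeq windows on GRCm38.p6, from 250 bases before to 50 bases after the transcription start, were held for 9 of the 10 genes, as 12 windows. They were searched on both strands for the E-box CACGTG, the D-box TTATGTAA and the ROR element named RORE. *Ciart* held 3 E-boxes, *Per3* 2 D-boxes and *Arntl* 1 ROR element, and *Per1* and *Tef* held E-boxes at starts inside the gene. The stretches with these matches are shown because they carry the elements through which the loop is known to run, with the matches in capitals and the gene's strand read 5′ to 3′. Of all 32851 windows, 7.15% held this E-box, 0.938% this D-box and 0.384% the ROR element, and a match is a description of letters.
*Ciart*, chr3:95882252-95882364, minus strand, upstream of the start: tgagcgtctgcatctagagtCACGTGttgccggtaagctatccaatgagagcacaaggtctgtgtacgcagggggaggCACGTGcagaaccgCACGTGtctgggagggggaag
*Per3*, chr4:151044798-151044884, minus strand, upstream of the start: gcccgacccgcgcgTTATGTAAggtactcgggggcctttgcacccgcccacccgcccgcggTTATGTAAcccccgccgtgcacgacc
*Per1*, chr11:69098759-69098812, plus strand, in an intron of the gene: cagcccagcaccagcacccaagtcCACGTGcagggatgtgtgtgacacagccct
*Tef*, chr15:81811254-81811303, plus strand, in an intron of the gene: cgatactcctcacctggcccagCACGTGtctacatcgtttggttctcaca
*Tef*, chr15:81802534-81802563, plus strand, in an exon: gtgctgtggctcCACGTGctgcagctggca
*Arntl*, chr7:113207527-113207556, plus strand, in an exon: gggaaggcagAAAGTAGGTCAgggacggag
The *Arntl* match to the ROR element lay just after the start, and the *Per3* matches to the D-box lay before it. None of the listed elements was matched in the windows of *Dbp*, *Hlf*, *Nr1d1* and *Nr1d2*, which says only that these letters are not in these windows.

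The labels were checked by *Neat1*, which lay between 4.04 and 5.52 CPM (the count scaled by library total and TMM factor) in the 4 *Neat1*-KO libraries and between 80.5 and 118 CPM in the 3 *Neat1*-WT libraries. Total counts were 19661878 to 26031517 per library, and the 10 clock genes had between 143 and 5698 counts per library. Replicates of a genotype differed well beyond counting noise, so no library was a copy of another. The cervical identity of the tissue was checked by *Hoxa4*, *Hoxa5*, *Hoxc4*, *Hoxc5* and *Hoxb8*, which summed to 333 to 431 CPM against 0.769 to 2.47 CPM for *Hoxa10*, *Hoxc10* and *Hoxd10* of the lumbar cord. *Neat1*-KO replicate 4 stood apart in genes outside the clock. Its Y-linked *Ddx3y* was at 39.9 CPM where the other 6 libraries had 75.8 to 94.4 CPM, while *Xist* was at most 0.161 CPM in every library. It was also highest in the glucocorticoid-responsive *Sgk1*, with 78.3 CPM, and in the activity-induced *Egr1*, with 47.5 CPM, and the clock genes that rest on it are given with and without it. Bulk RNA from a cord cannot tell fewer cells of a type from less RNA per cell.

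The PAR bZIP factors are transcription factors that follow the loop. *Dbp* (chr7:45705088-45710203, plus strand) was at 47.4, 80.7, 54.6 and 90.6 CPM in the *Neat1*-KO libraries, from replicate 1 to replicate 4, and at 36.1, 38.7 and 41.3 CPM in those of *Neat1*-WT, from replicate 2 to replicate 4. Every *Neat1*-KO library was above every *Neat1*-WT library, replicates 2 and 4 by the most, and the 3 *Neat1*-WT libraries lay close together. *Neat1*-KO averaged 68.3 ± 20.6 CPM (SD, n = 4), which is 1.77 times the *Neat1*-WT average of 38.7 ± 2.61 CPM (SD, n = 3). The log2 fold change of the edgeR fit, *Neat1*-KO over *Neat1*-WT, was 0.82 (SE 0.19) and 0.66 without *Neat1*-KO replicate 4. It was the widest difference of the 10 genes. *Tef* (chr15:81802421-81826863, plus strand) encodes a relative of DBP that binds the same sites. It was at 190, 212, 195 and 217 CPM in *Neat1*-KO libraries and at 180, 179 and 191 CPM in *Neat1*-WT libraries, with only *Neat1*-KO replicate 1 inside the *Neat1*-WT range. Its log2 fold change was 0.15 (SE 0.07), from means of 204 ± 13.2 CPM (SD, n = 4) and 183 ± 6.36 CPM (SD, n = 3). *Hlf* (chr11:90336536-90390895, minus strand), the remaining PAR bZIP factor, was at 49.6, 65.9, 66.7 and 62.6 CPM and at 51.8, 54.9 and 59.8 CPM. *Neat1*-KO replicate 1 was the lowest of the 7 libraries and the other 3 *Neat1*-KO libraries were the highest. The log2 fold change of *Hlf* was 0.14 (SE 0.11).

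The PER proteins and CHRONO are the repressors of the loop. *Per1* (chr11:69095217-69109960, plus strand), which is also induced acutely by light, glucocorticoid and neuronal activity, was at 22.5, 30.5, 27.5 and 44.1 CPM in *Neat1*-KO libraries and at 25.8, 27.0 and 24.1 CPM in *Neat1*-WT libraries. *Neat1*-KO replicate 1 was the lowest and replicate 4 the highest of the 7, so the groups overlapped. On the log2 scale the difference was 0.28 (SE 0.18) with all libraries and 0.07 without *Neat1*-KO replicate 4. *Per2* (chr1:91415982-91459324, minus strand) was at 7.91, 10.2, 12.1 and 14.7 CPM in *Neat1*-KO libraries and at 10.7, 10.1 and 13.2 CPM in *Neat1*-WT libraries. Again *Neat1*-KO replicate 1 was the lowest and replicate 4 the highest, around the *Neat1*-WT range. The log2 fold change of *Per2* was -0.01 (SE 0.19), with -0.17 without *Neat1*-KO replicate 4 and 0.12 without *Neat1*-KO replicate 1, so it has no settled sign. *Per3* (chr4:151003652-151044665, minus strand), the PER gene that is least needed for the rhythm, was at 20.8, 29.7, 28.8 and 37.0 CPM and at 20.3, 25.1 and 28.2 CPM. Replicates 2, 3 and 4 of *Neat1*-KO were above all *Neat1*-WT libraries, and replicate 1 was near the lowest of them. Its log2 fold change was 0.25 (SE 0.17), and 0.11 without *Neat1*-KO replicate 4. *Ciart* (chr3:95878503-95882251, minus strand) was the repressor with the lowest counts. It was at 9.20, 7.82, 8.40 and 9.84 CPM in *Neat1*-KO libraries and at 7.24, 6.68 and 8.11 CPM in *Neat1*-WT libraries. Here it was *Neat1*-KO replicate 2 that lay inside the *Neat1*-WT range, and replicate 1 was the second highest of the 7. The log2 fold change of *Ciart* was 0.26 (SE 0.14).

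The REV-ERB receptors, repressors of *Arntl*, differed from each other. *Nr1d1* (chr11:98767932-98775333, minus strand) was at 119, 146, 111 and 139 CPM in *Neat1*-KO libraries and at 111, 105 and 108 CPM in *Neat1*-WT libraries. Every *Neat1*-KO library was above every *Neat1*-WT library, but *Neat1*-KO replicate 3 and *Neat1*-WT replicate 2 were nearly equal and changed places with median-of-ratios scaling. It differed by 0.26 (SE 0.09) on the log2 scale, from means of 129 ± 16.4 CPM (SD, n = 4) and 108 ± 2.95 CPM (SD, n = 3). *Nr1d2* (chr14:18204054-18239127, minus strand), which is regulated in parallel and largely redundant with *Nr1d1*, was at 112, 105, 124 and 115 CPM and at 125, 109 and 114 CPM. The groups overlapped throughout, with the *Neat1*-WT library of replicate 2 the highest and the *Neat1*-KO library of replicate 2 the lowest. The log2 fold change of *Nr1d2* was -0.02 (SE 0.08).

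*Arntl*, the activator and the only night-to-dawn gene of the 10, went the other way. On chr7:113207465-113314126, plus strand, it was at 16.1, 13.0, 13.7 and 13.4 CPM in *Neat1*-KO libraries and at 16.0, 17.1 and 18.8 CPM in *Neat1*-WT libraries. Replicates 2, 3 and 4 of *Neat1*-KO were below every *Neat1*-WT library, and replicate 1 was just above the lowest of them. The *Neat1*-WT mean of 17.3 CPM, with an SD of 1.38 over 3 libraries, was 1.23 times the *Neat1*-KO mean, which had an SD of 1.42 over 4 libraries. On the log2 scale the difference was -0.30 (SE 0.11), and it lay between -0.38 and -0.24 in all alternatives tried.

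**Figure D1:**
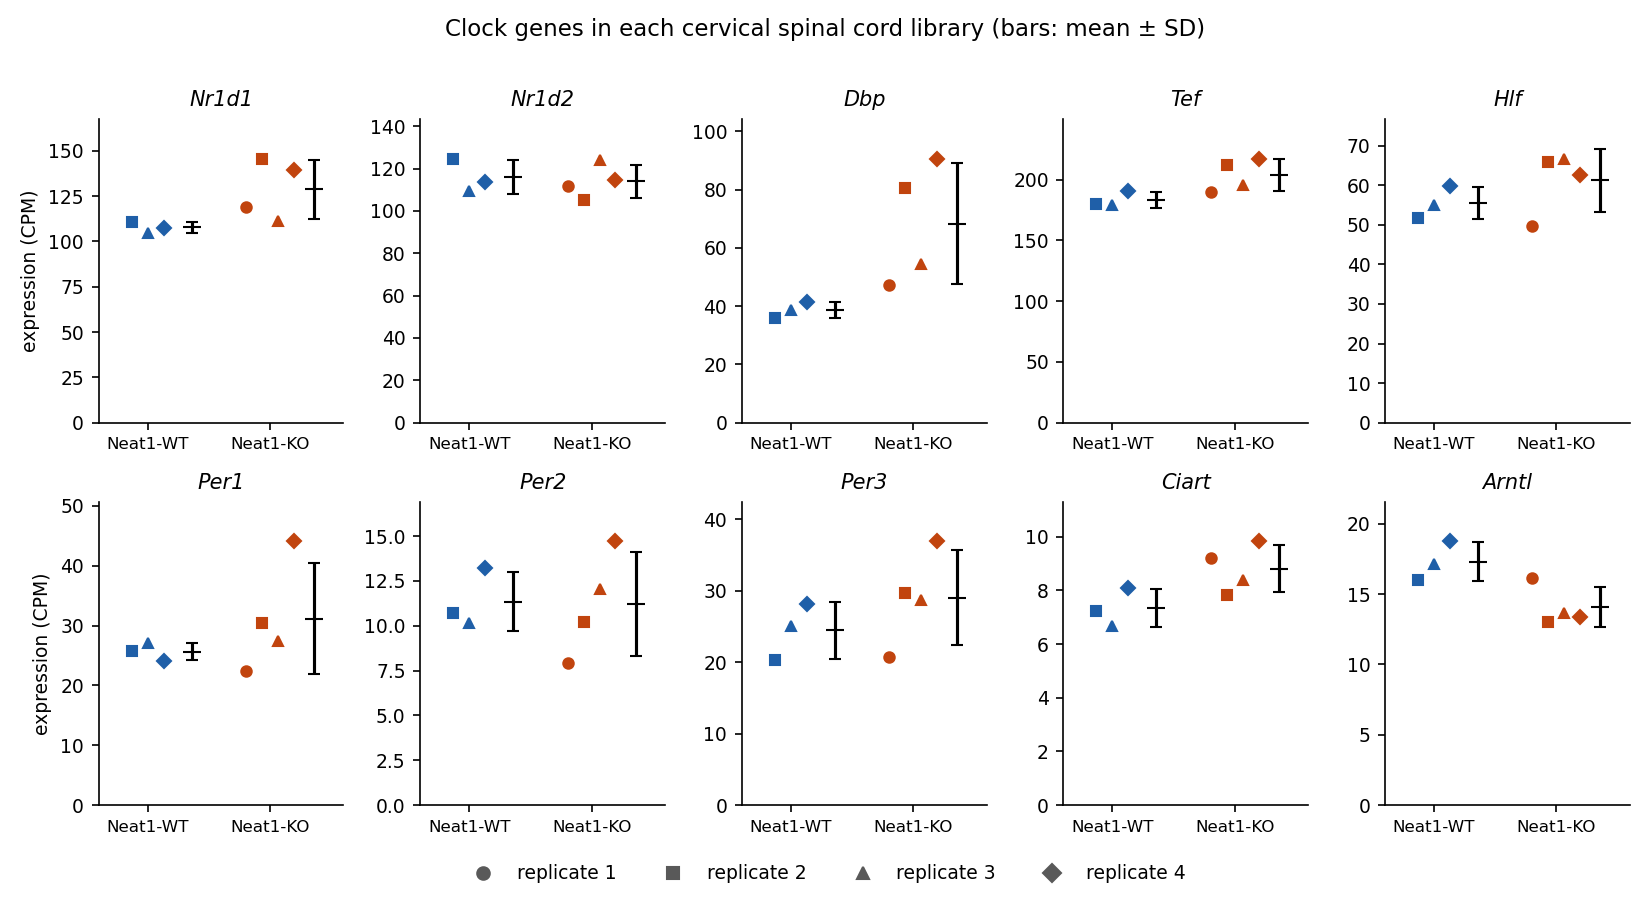
CPM (y axis, from 0) of the 10 clock genes in each library, with 1 panel per gene. Points are libraries labelled by replicate number and bars are mean and SD of 4 *Neat1*-KO and 3 *Neat1*-WT libraries. *Dbp* at 47.4 to 90.6 CPM in *Neat1*-KO is apart from 36.1 to 41.3 CPM in *Neat1*-WT, while *Nr1d2* and *Per2* overlap.

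Of the 10 genes, 7 were higher in *Neat1*-KO by the sign of the fold change and 3 were lower, of which *Nr1d2* and *Per2* were near 0. The study's thresholds ask for a Benjamini-Hochberg adjusted p below 0.1 together with a log2 fold change beyond 0.58 in either direction. With them edgeR called none of the 10, where it called 6 genes or 0.0325% of all genes tested. *Dbp* was the only one of the 10 that any alternative called: without the filter on low counts, without *Neat1*-KO replicate 1, or with the replicate number as a block. No *Neat1*-WT library is numbered 1, so the block sets *Neat1*-KO replicate 1 aside and the last 2 alternatives are nearly the same. Values of *Neat1*-KO lay wholly above those of *Neat1*-WT for 2 of the 10 genes, *Dbp* and *Nr1d1*, and wholly below for 0. Over all genes tested these shares were 2.91% and 2.57%. Because the genes were chosen from this contrast, nothing is read from these counts. Without *Neat1*-KO replicate 1, the library that closed the gap in *Per3*, *Tef*, *Hlf*, *Per1* and *Arntl*, 6 genes were apart and higher and *Arntl* was apart and lower, when 5.89% and 5.57% of all genes were. The counts of these genes can gain or lose reads where exons of a neighbour overlap, since the strand setting of the counting is not given in the sources used here. *Sphk2* on the other strand covers 539 of the 2993 exon bases of *Dbp*, and *Thra* covers 263 bases or 8.55% of those of *Nr1d1*.

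The known order of peaks was then laid over these differences. A list of 5 genes with a peak between night and dawn held *Arntl*, *Npas2*, *Clock*, *Cry1* and *Nfil3*, and a list of 11 genes with a peak between day and dusk held the other 9 clock genes, *Usp2* and *Bhlhe41*. Since 10 of these 16 genes were chosen from this contrast, their signs and medians are a description from which nothing is read. Of the 11 day-to-dusk genes 9 were higher in *Neat1*-KO, with a median log2 fold change of 0.21, and of the 5 night-to-dawn genes 4 were lower, with a median of -0.15, beside a median of 0.01 over all genes tested. The other 6 genes come from lists that were also drawn up with earlier results of these data known. Their signs are a description too. Both day-to-dusk genes among the 6, *Usp2* and *Bhlhe41*, were higher. Of the 4 night-to-dawn genes 3 were lower and 1 was higher, and 0 of the 6 passed the edgeR test. The log2 fold changes of the night-to-dawn genes other than *Arntl* were -0.17 (SE 0.18) for *Npas2*, -0.15 (SE 0.09) for *Clock*, -0.07 (SE 0.11) for *Cry1* and 0.02 (SE 0.14) for *Nfil3*. Along the day-to-dusk order the values are given as they stand. The earliest gene *Nr1d1* was at 0.26 and the latest *Per2* at -0.01, while *Nr1d2* in the middle was at -0.02 and *Per1*, late in the order, at 0.28.

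**Figure D2:**
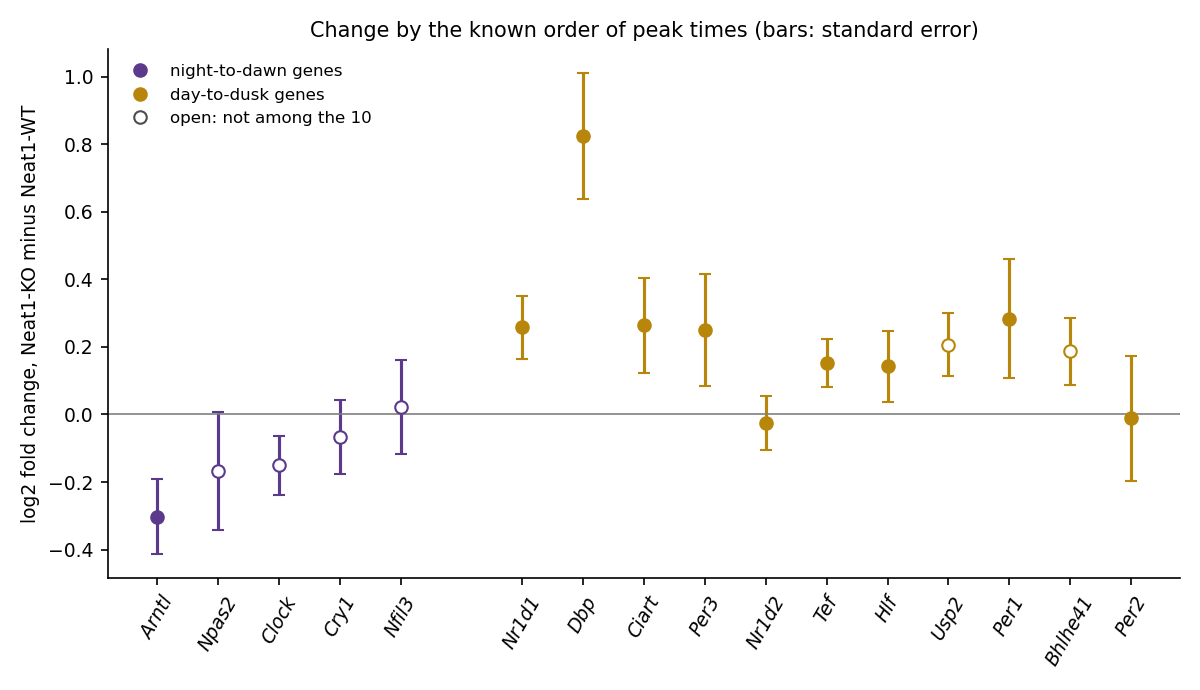
Log2 fold change, *Neat1*-KO over *Neat1*-WT, with its standard error for the 5 night-to-dawn genes and the 11 day-to-dusk genes in the order of their known peaks. Filled points are the 10 clock genes chosen and open points are other genes. The night-to-dawn values run from -0.30 to 0.02 and the day-to-dusk values from -0.02 to 0.82.

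The same lists, with the chosen genes in them, were read in each library as a description. The mean of the day-to-dusk genes minus that of the night-to-dawn genes, each gene taken in log2 CPM relative to its mean, was -0.16, 0.26, 0.05 and 0.45 in the *Neat1*-KO libraries by replicate number and -0.20, -0.25 and -0.14 in the *Neat1*-WT libraries. *Neat1*-KO replicate 1 therefore lay within the *Neat1*-WT range and replicate 4 farthest from it. The 4 *Neat1*-KO libraries ran over a wider range on this measure than the 3 *Neat1*-WT libraries. Whether the cords of the libraries were collected at different times of day was not tested, as no time is given.

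Within a genotype, deviations of a library from its group mean do not contain the contrast by which the genes were selected. *Neat1*-KO replicate 4 was above the *Neat1*-KO mean in 9 of 9 day-to-dusk members of the 10 and below it in *Arntl*. *Neat1*-KO replicate 1 was below that mean in all of them except *Ciart*, and above it by 0.20 in *Arntl* on the log2 scale. Replicates 2 and 3 had 6 and 4 of the 9 above the mean. The share of all genes above the mean in each library was not computed, so nothing particular to the clock is read from these counts. In the same order of libraries, *Dbp* deviated by -0.48, 0.29, -0.27 and 0.46 in *Neat1*-KO and by -0.10, 0.00 and 0.10 in *Neat1*-WT. The *Neat1*-WT libraries thus spanned a much narrower range in *Dbp* than the *Neat1*-KO libraries did.

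**Figure D3:**
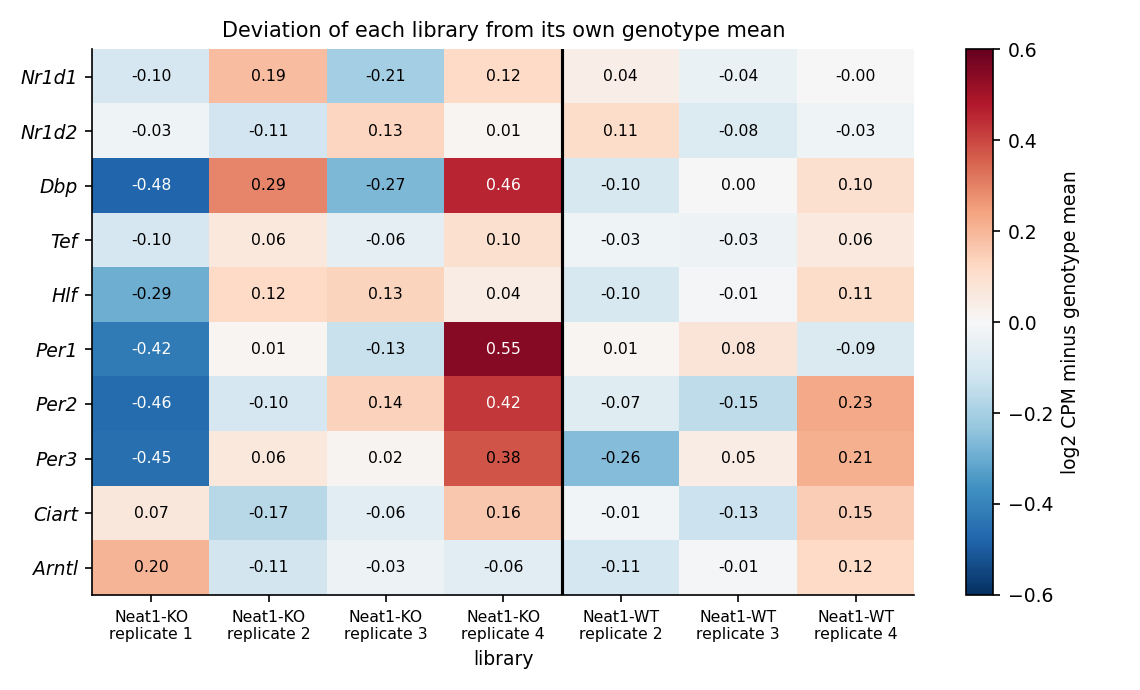
Deviation of each library (columns) from the mean of its genotype in log2 CPM for the 10 clock genes (rows), with colour and printed value as the deviation. *Neat1*-KO replicate 4 is above its mean in the 9 day-to-dusk genes and *Neat1*-KO replicate 1 is below it in all of them except *Ciart*.

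These deviations went together in part of the genes. Over the 7 libraries, 28 of the 36 pairs among the 9 day-to-dusk genes correlated positively, with a median Pearson r of 0.45 and a range of -0.50 to 0.96. *Dbp* and *Tef* had the highest r, 0.96, followed by *Per2* and *Per3* at 0.88 and *Dbp* and *Per1* at 0.86. The lowest was that of the REV-ERB pair *Nr1d1* and *Nr1d2*, at -0.50. *Arntl* correlated negatively with all of these genes except *Ciart*, with a median r of -0.42 over 9 pairs and -0.56 with *Dbp*. The points of these correlations share library and scaling, so they are a description of 7 libraries. The share of positive pairs over all genes was not computed. Values near the median r were frequent outside the clock. With *Dbp*, the r of 0.51 of *Usp2* ranked only 2320 among 12831 genes.

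Mice of a genotype differed more in some clock genes than in others. The SD within genotype on the log2 scale was 0.35 for *Dbp*, 0.32 for *Per1*, 0.32 for *Per2* and 0.31 for *Per3*, against a median of 0.17 over all genes tested. These SDs stood at percentiles 81.8, 78.7, 78.5 and 77.2 among all genes tested, and the median percentile of the 10 genes was 46.0. Since genes with few counts scatter more, the SDs were also ranked among genes whose mean log2 CPM was within 0.5 of that of the gene, a ranking added after the data had been seen. There the same 4 genes stood at percentiles 99.1, 98.1, 94.2 and 97.4. *Tef*, *Ciart*, *Arntl* and *Nr1d2* were at 28.6, 24.4, 35.7 and 46.7, and *Nr1d1* and *Hlf* at 77.6 and 83.3.

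**Figure D4:**
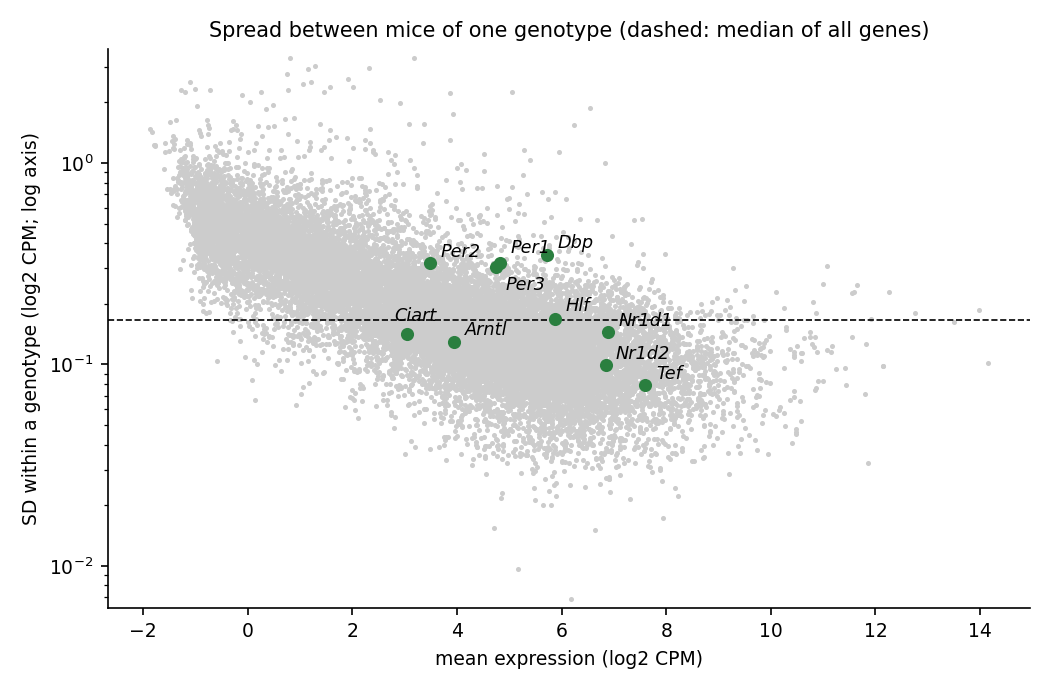
Standard deviation within genotype in log2 CPM (y axis, log scale) against mean log2 CPM (x axis) for the 10 clock genes over 7 libraries, with the median of all genes tested, 0.17, as a dashed line. *Dbp*, *Per1*, *Per2* and *Per3* are above 0.30.

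The level of each gene per length of exon was compared as TPM, counts per length scaled to the same total in each library, computed with the union of annotated exons. Over the 7 libraries *Nr1d1* had the highest level, 133 ± 19.3 TPM (SD, n = 7), followed by *Tef* with 84.5 ± 7.84, *Nr1d2* with 72.3 ± 4.95 and *Dbp* with 63.6 ± 25.5 TPM. *Hlf* was between 23.9 and 34.7 TPM in the libraries, *Per1* at 17.5 ± 4.62 and *Ciart* at 12.3 ± 1.63 TPM. *Per3* was at 9.65 ± 2.24, *Arntl* at 6.99 ± 0.969 and *Per2* at 6.59 ± 1.43 TPM, so the activator *Arntl* was among the least abundant of the loop. The ranges of neighbours in this order overlapped over the libraries except *Nr1d1* over *Tef* and *Dbp* over *Hlf*, and *Nr1d1* was 20.1 times *Per2*. Within the same library, however, *Hlf* was above *Per1* and *Ciart* above *Per3* in 7 of the 7. *Tef* was above *Nr1d2*, *Per1* above *Ciart* and *Per3* above *Arntl* in 6 of the 7. With the longest annotated transcript as the length, *Tef* at 121 TPM passed *Nr1d1* at 120 TPM, *Dbp* at 82.7 TPM passed *Nr1d2* at 67.0 TPM, and *Per3* at 12.3 TPM passed *Ciart* at 11.5 TPM. The order of the means also differed with genotype, though *Nr1d2* was above *Dbp* in 5 of the 7 libraries and *Arntl* above *Per2* in 4. *Dbp* averaged 78.1 ± 25.2 TPM (SD) in *Neat1*-KO, above *Nr1d2* at 71.8 ± 6.17 TPM. In *Neat1*-WT it averaged 44.1 ± 3.90 TPM, below *Nr1d2* at 73.0 ± 3.87 TPM. *Arntl* averaged 6.34 ± 0.394 TPM in *Neat1*-KO, below *Per2* at 6.56 ± 1.83 TPM. In *Neat1*-WT it averaged 7.85 ± 0.788 TPM, above *Per2* at 6.62 ± 1.06 TPM. This change of order rests on the exon union as the length. With the longest transcript *Arntl* was above *Per2* in both genotypes. It was at 9.54 against 5.26 TPM in *Neat1*-KO and at 11.8 against 5.31 TPM in *Neat1*-WT.

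**Figure D5:**
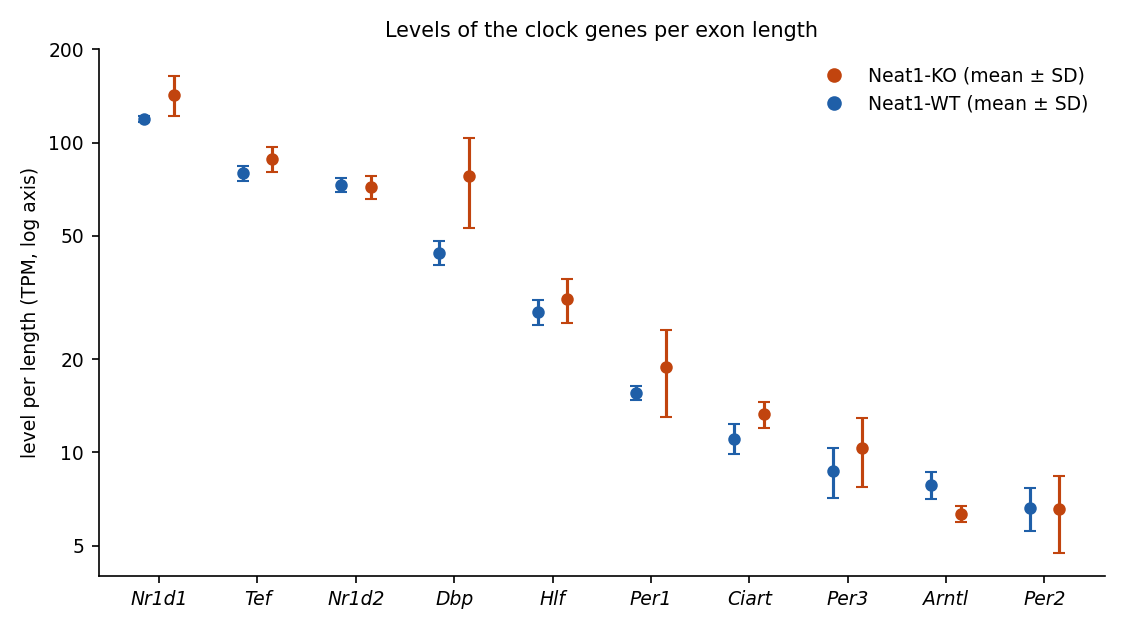
Level of the 10 clock genes in TPM (log axis), as mean and SD over 4 *Neat1*-KO and over 3 *Neat1*-WT libraries. Over all 7 libraries the levels run from 133 TPM for *Nr1d1* to 6.59 TPM for *Per2*.

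The rest of the clock was read from 18 other core genes, which were not in the rule and were tested. Their list and that of the clock outputs were also drawn up with earlier results of these data known. Of the 18 genes, 9 were higher and 9 lower in *Neat1*-KO, with a median log2 fold change of 0.004, and 0 passed the test. The smallest adjusted p of the edgeR quasi-likelihood test was 0.992, and 0 of the 18 had an unadjusted p under 0.05, where 2.24% of all genes were higher and 2.4% lower at that level. *Cry2*, a repressor partner of the PER proteins, was at 76.2 ± 6.35 CPM (SD, n = 4) and 70.8 ± 2.01 CPM (SD, n = 3). *Clock*, the partner of BMAL1, was at 91.3 ± 8.31 and 101 ± 8.28 CPM. *Bhlhe40* and *Bhlhe41*, E-box repressors, had log2 fold changes of 0.17 (SE 0.09) and 0.19 (SE 0.10). *Rora* and *Rorb*, activators at ROR elements, were at -0.10 (SE 0.11) and 0.03 (SE 0.13). The kinases that phosphorylate PER were at 0.04 (SE 0.07) for *Csnk1d* and -0.01 (SE 0.08) for *Csnk1e*. The ubiquitin ligase components *Fbxl21* and *Btrc* were at 0.10 (SE 0.15) and -0.09 (SE 0.07). *Btrc* was the only one of the 18 without overlap, lower in *Neat1*-KO, where 5.48% of all genes tested had no overlap in either direction. *Arntl2*, *Timeless* and *Tipin* were at 0.04 (SE 0.17), -0.06 (SE 0.18) and 0.11 (SE 0.12).

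Of 7 genes known to follow the clock, 4 were higher and 3 lower, with a median log2 fold change of 0.001, and 0 passed the test. *Usp2*, a deubiquitinase, was at 18.8 ± 0.563 CPM (SD, n = 4) and 16.3 ± 0.851 CPM (SD, n = 3). It was the only one of the 7 without overlap, where 5.48% of all genes tested had none. Its log2 fold change was 0.21 (SE 0.09), with an adjusted p of 0.992 by edgeR. *Usp2* was the only one of the 25 other clock and output genes with an unadjusted p under 0.05, where DESeq2 gave 0 and limma-voom 1, and neither called any of the 25. *Wee1*, *Nampt* and *Tsc22d3* had log2 fold changes of 0.03 (SE 0.09), 0.001 (SE 0.10) and -0.07 (SE 0.10), and *Tspan4*, *Lonrf3* and *Coq10b* of 0.13 (SE 0.13), -0.004 (SE 0.18) and -0.13 (SE 0.12). A p that misses the threshold does not show that these genes were alike in the genotypes.

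Genes whose deviations within genotypes were most like those of *Dbp* were sought among the 12831 genes with a mean of at least 5 CPM. The highest Pearson r over the 7 libraries were those of *Ubap2* (0.99), *Qsox1* (0.99), *Abhd11os* (0.98), *Kremen1* (0.98) and *Gm11646* (0.98). The lowest were those of *Snx16* (-0.996), *Dpy30* (-0.98), *Fam69a* (-0.98), *Zfp946* (-0.97) and *Ptpn2* (-0.97). These are the extremes of many genes over 7 libraries. The clock genes closest to *Dbp* were *Csnk1e* and *Tef*, both at 0.96, *Bhlhe41* at 0.91 and *Cry2* at 0.90. Among the 12831 genes *Csnk1e* ranked 23, *Bhlhe41* 120 and *Cry2* 147, so many genes outside the clock were closer. Other clock and output genes lay near 0, as *Clock* and *Cry1* at -0.03, or at the other end, as *Nampt* at -0.89 and *Nfil3* at -0.82.

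Other programmes known to move clock genes were read beside them. *Per1* and the output gene *Tsc22d3* answer to glucocorticoid, and of 12 glucocorticoid-responsive genes 4 were higher and 8 lower in *Neat1*-KO, with a median log2 fold change of -0.02, which ran from -0.08 to 0.06 with a library left out. Of 12 immediate early genes 9 were higher, with a median of 0.06 that turned to -0.10 without *Neat1*-KO replicate 4 and was 0.28 with *Xist* as a covariate. Their summed level was 192 CPM in *Neat1*-KO replicate 4, the library highest in *Per1*, against 135 to 160 CPM in the others. The cold-inducible *Cirbp* and *Rbm3*, whose RNAs follow the daily rhythm of body temperature, were higher in every *Neat1*-KO library than in any *Neat1*-WT library. Of all genes tested, 2.91% were. *Rbm3* was nearly equal in *Neat1*-KO replicate 3, at 34.0 CPM, and *Neat1*-WT replicate 3, at 33.5 CPM. The log2 fold changes of *Cirbp* and *Rbm3* were 0.53 (SE 0.13) and 0.50 (SE 0.14), with adjusted p of 0.605 and 0.733 by edgeR. Among the cell type markers, all 4 meningeal genes had positive log2 fold changes, with a median of 0.29 that ran from -0.05 without *Neat1*-WT replicate 2 to 0.75 without *Neat1*-WT replicate 4, and 1 of them had an unadjusted p under 0.05. Their summed level ran from 69.4 to 182 CPM in *Neat1*-KO and from 62.7 to 187 CPM in *Neat1*-WT, and *Mrgprd*, *Scn10a* and *Prdm12* of sensory ganglia were under 1 CPM on average. All 5 motor neuron markers had negative log2 fold changes, with a median of -0.20, and -0.32 without *Neat1*-WT replicate 4 or -0.12 without *Neat1*-WT replicate 2. Of these markers, 2 had an unadjusted edgeR p under 0.05, and 0 were without overlap between the genotypes. Their summed level ran from 211 to 264 CPM in *Neat1*-KO and from 266 to 332 CPM in *Neat1*-WT, so the sums did not overlap. The 4 oligodendrocyte markers had a median of -0.14, and -0.07 without *Neat1*-WT replicate 4. The 4 microglial markers had a median of 0.12, which turned to -0.02 without *Neat1*-WT replicate 2 and was 0.27 without *Neat1*-WT replicate 4. Those of blood had a median of -0.33, and -0.14 without *Neat1*-KO replicate 3. The 4 astrocyte markers, the 4 neuron markers and the 4 vessel markers had medians of -0.01, -0.01 and -0.02, each with either sign when a library was left out. The part of any of these in the differences of the clock genes was not tested.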

How the data were processed

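Members and gene lists were chosen with earlier results of these data known. The authors trimmed the paired reads, aligned them and counted uniquely mapped reads per gene, and deposited raw counts without normalization. Their processing notes name FastQC 0.11.7, Trimmomatic 0.38, HISAT2 2.1.0, SAMtools 1.9, featureCounts 1.6.3 and mm10. The annotation and strand setting are not given in the sources used here. GENCODE M21 on GRCm38 named 55227 of the 55487 genes, and the 260 others held 0.00446% of the counts.

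Counts of all 7 libraries were filtered with filterByExpr, scaled by TMM (factors 0.991 to 1.008) and tested with the edgeR 4.0.16 quasi-likelihood F-test in R 4.3.3, without covariates and with Benjamini-Hochberg adjustment over 18449 genes. Log2 CPM used a prior count of 2. CPM were scaled by library total and TMM factor. Genes were named as the 10 members, the other core and output genes of the fixed lists, *Neat1*, and the 5 most and 5 least like *Dbp*. Some genes of these lists are not reported here by name. The labels do not say more on how libraries were obtained, so p-values measure the spread between these libraries. On counts simulated for this comparison with 18449 genes, edgeR called 98 of 100 genes given a log2 fold change of 1. The changed genes were all above 5 CPM, and edgeR also called 23 unchanged genes. Smaller changes, like those of the clock genes here, were not simulated, so this says nothing on how often they would be called. Alternatives were other scalings, no filter, DESeq2 1.42.0, limma-voom (limma 3.58.1), a replicate block, *Xist* as a covariate and each library left out.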

Additional observations from a re-analysis of the deposited data

Results flagged for a closer look

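Of 36 results examined in the 4 *Neat1*-KO libraries for a library far from the rest, 0 had one by Dixon's criterion, where chance would give about 1.8.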

How the results depend on the processing

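The number of genes called was 6, against 27 with DESeq2, 124 without the filter on low counts, 39 with the replicate number as a block, and 3 (without *Neat1*-WT replicate 3) to 31 (without *Neat1*-KO replicate 1) with a library left out. Same-numbered libraries did not deviate together (correlations of -0.20, -0.12 and -0.01), where different-numbered ones ran from -0.21 to 0.17. Such few correlations cannot show whether the numbers pair the samples. Of the day-to-dusk members, 2 were lower in *Neat1*-KO, against 0 with *Xist* as a covariate, 1 with the replicate block and 0 to 2 with a library left out. Members without overlap numbered 2, and 2 to 7 with a library left out, with 7 without *Neat1*-KO replicate 1 and 4 without *Neat1*-WT replicate 4, while the share of all genes without overlap was 5.48% and became 11.5% and 13.2% there. With upper-quartile factors *Tef* joined *Dbp* and *Nr1d1*, and with median-of-ratios factors *Arntl* took the place of *Nr1d1*. No other clock gene was called in any alternative. The sign of *Per2* changed in 5 of 14 alternatives (-0.17 to 0.32) and that of *Nr1d2* in 3 (-0.07 to 0.03), and the other 8 members kept theirs. *Dbp* ranged from 0.66 to 1.04 and *Per1* from 0.07 to 0.56. The median percentile of the members' SD within genotype was 46.0 among all genes and 80.4 among genes of like level, an alternative chosen after seeing the data. *Xist* was near 0 in every library, so that covariate holds little but noise. Counts of 143 to 386 limit *Ciart* and *Per2*.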

Other observations

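*Neat1*-KO replicate 4 was lowest in the Y-linked genes *Ddx3y*, *Eif2s3y*, *Kdm5d* and *Uty*, at 39.9, 12.2, 9.69 and 6.45 CPM, against lowest values of 75.8, 19.6, 19.4 and 16.6 CPM in the other 6 libraries. The cause was not tested.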
